A study of Oryza sativa with 3 samples.

Results

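miR159 and miR319 are related miRNA families with different targets. Every mature sequence that the deposited table of known miRNAs assigns to them was taken, each sequence once, which gave 3 of the 59 known miRNAs and of the 289 named miRNAs in all: osa-miR159b and osa-miR159f of miR159, and osa-miR319b of miR319. They were read in embryos of rice cultivar Nipponbare. The de-hulled seeds had been kept in distilled water at 30 °C in the dark for 0 h (dry seed), 12 h or 24 h before the embryos were dissected by hand, and no other genotype or agent entered these groups. Each time point, given as hours after imbibition (HAI), has 1 small RNA library of 18–30 nt, made from the mixed RNA of 4 plates with 50 seeds each. Therefore the time points cannot be compared over replicates, and the limits given below cover counting error only. The libraries hold small RNAs, so neither embryo marker transcripts nor the target mRNAs could be examined. A higher share of cells that make a miRNA and more of it per cell cannot be told apart in dissected embryos.

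Plant miRNAs are cut from hairpin precursors, enter Argonaute proteins and guide the cleavage or the translational repression of mRNAs to which they pair almost fully. miR159 pairs with mRNAs of GAMYB-type MYB transcription factors, which in cereal aleurone switch on hydrolase genes in response to gibberellin. miR319 pairs with mRNAs of a subset of TCP transcription factors, which in Arabidopsis control cell division and the shape of leaves. The families have a common origin, and in Arabidopsis the long precursors of both are cut from the loop towards the base.

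The mature sequences are shown because the division into families rests on them. They are written 5′ to 3′ with T for U, as deposited, and bases 2 to 8 (the seed) are in capitals.
osa-miR159b: tTTGGATTgaagggagctctg
osa-miR159f: cTTGGATTgaagggagctct
osa-miR319b: tTGGACTGaagggtgctccct
Both miR159 sequences have the seed TTGGATT, which no other of the 289 miRNAs carried. The seed of osa-miR319b, TGGACTG, was found in no other miRNA either.

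The miR159 members differ at their ends. Over 20 aligned bases they match at 19 (95%), with the difference T1C (osa-miR159b first, position from its 5′ end, then the base in osa-miR159f). osa-miR159b has 1 more base at the 3′ end. Its length of 21 nt is shared by 57 of the 289 miRNAs (31 of the 59 known), and the 20 nt of osa-miR159f by 5 (4 known). A first base T, as in osa-miR159b and osa-miR319b, occurred in 97 miRNAs (38 of the 59 known). A first base C, as in osa-miR159f, occurred in 15 (4 known).

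osa-miR319b is aligned to miR159 when its first base is set under base 2 of osa-miR159b. It then matches osa-miR159b at 16 of 20 bases (80%), with the differences T7C, A15T, T20C and G21C (the miR159 base, its position in miR159, then the base of osa-miR319b). Against osa-miR159f it matches at 16 of 19 bases (84.2%), with T7C, A15T and T20C. T7C lies in the seed of miR159, so that the families share no seed even when the shift is taken into account. The longest stretch shared by all 3 sequences has 7 bases, TGAAGGG, here in capitals.
osa-miR159b: tttggatTGAAGGGagctctg
osa-miR159f: cttggatTGAAGGGagctct
osa-miR319b: ttggacTGAAGGGtgctccct
It covers positions 8 to 14 of the miR159 sequences and 7 to 13 of osa-miR319b. On the given strand it was present in 3 of the 289 mature sequences, namely these.

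Each mature sequence was listed with 1 precursor, all on chromosome 1 of the MSU 7.0 build. osa-MIR159b lies at chr1:1215042-1215207 on the plus strand and was annotated by the authors as intergenic. osa-MIR159f lies at chr1:6693125-6693288, also on the plus strand and intergenic. osa-MIR319b lies at chr1:6677579-6677755 on the minus strand and was annotated as exonic. Hence the precursors of osa-miR319b and osa-miR159f are 15.4 kb apart on opposite strands. Of all pairs of known precursors with different mature sequences, this one ranked 3rd in closeness. The nearest other known precursor to osa-MIR159b, osa-MIR393a, is 1094 kb away. No other mature sequence and no predicted precursor fell inside the 3 loci.

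The precursors are shown with the mature sequence in capitals, to let the hairpin arms be compared.
osa-MIR159b: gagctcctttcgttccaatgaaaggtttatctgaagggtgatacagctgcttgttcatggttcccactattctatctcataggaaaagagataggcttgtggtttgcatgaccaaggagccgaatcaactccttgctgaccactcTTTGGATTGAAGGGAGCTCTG
osa-MIR159f: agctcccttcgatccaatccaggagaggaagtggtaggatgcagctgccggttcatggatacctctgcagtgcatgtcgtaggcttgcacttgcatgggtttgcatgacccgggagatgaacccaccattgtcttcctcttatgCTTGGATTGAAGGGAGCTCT
osa-MIR319b: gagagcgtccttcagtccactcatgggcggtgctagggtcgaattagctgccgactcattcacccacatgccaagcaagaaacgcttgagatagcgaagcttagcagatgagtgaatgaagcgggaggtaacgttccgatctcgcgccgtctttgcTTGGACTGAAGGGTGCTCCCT
In all 3, the mature sequence forms the 3′ end of the listed precursor, on the 3p arm. No miRNA* sequence was listed for any of them.

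The hairpins are long. They have 166, 164 and 177 nt for osa-MIR159b, osa-MIR159f and osa-MIR319b, and rank 5th, 6th and 4th in length among the 83 known precursors, whose median was 93 nt. The listed minimum folding free energies (MFE) of -70.7, -91.2 and -89.7 kcal/mol were far below the median of -48.3 kcal/mol. Adjusted for length and G+C, this was no longer so. The MFE index, calculated here from the listed MFE, was 0.930 for osa-MIR159b, 1.05 for osa-MIR159f and 0.925 for osa-MIR319b, against a median of 1.02. In structures predicted with RNAfold, 17 bases of each mature sequence were paired, and 127, 127 and 137 bases lay between the paired arms. The pairing of the mature sequence was continuous in osa-MIR159f and osa-MIR319b apart from the outermost bases, and interrupted once in osa-MIR159b.

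**Figure D1:**
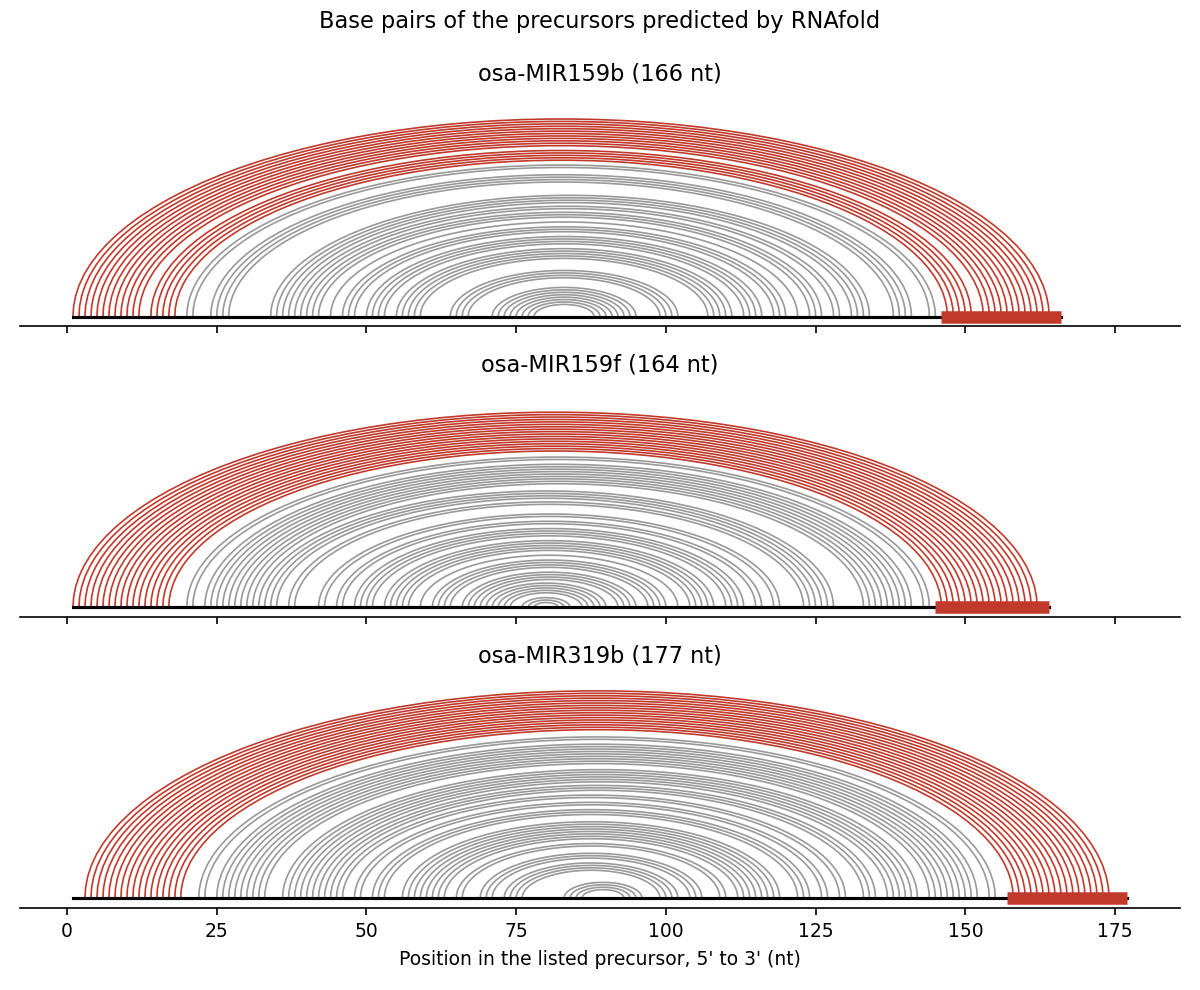
Base pairs predicted by RNAfold in the 3 precursors, drawn as arcs over the position in the listed precursor (nt, 5′ to 3′). The red bar is the mature sequence and red arcs are its pairs, of which each hairpin has 17, all closing on the 5′ end of the precursor.

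The libraries had 19203513, 22332607 and 17359816 genome-mapped reads at 0, 12 and 24 HAI, of which 285143, 634097 and 590212 belonged to the 289 miRNAs. These are 1.48%, 2.84% and 3.40% of the mapped reads. The deposited TPM is the reads per 1000000 genome-mapped reads, with no adjustment for length. A single read equals 0.0521, 0.0448 and 0.0576 TPM, so all members are far above the counting limit. A read ascribed to a member may come from any locus that yields the same mature sequence. Matches to miRBase allowed 2 mismatches, and how reads between osa-miR159b and osa-miR159f were divided is not given in the sources used here.

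All 3 members were among the most abundant miRNAs of the embryo. osa-miR159b had 32567, 97416 and 97504 reads in the order of the time points, or 1696 TPM (95% Wilson limits 1678–1714), 4362 TPM (4335–4389) and 5617 TPM (5582–5652). The limits of the libraries did not overlap, and the level was lowest in the dry seed and highest at 24 HAI. The nearly equal reads at 12 and 24 HAI stand for different TPM because the 24 HAI library has fewer mapped reads.

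osa-miR159f was the lower of the miR159 members at each time. It had 12398, 35813 and 36349 reads, or 646 TPM (634–657) at 0 HAI, 1604 TPM (1587–1620) at 12 HAI and 2094 TPM (2072–2115) at 24 HAI. The order of the libraries was that of osa-miR159b. Summed, the miR159 family had 2341, 5966 and 7711 TPM.

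osa-miR319b started higher and differed little between 12 and 24 HAI in TPM. It had 52560, 99260 and 78780 reads, or 2737 TPM (2714–2760) at 0 HAI, 4445 TPM (4417–4472) at 12 HAI and 4538 TPM (4507–4570) at 24 HAI. The value of the dry seed was well below the others, and those of 12 and 24 HAI were close, although their counting limits did not overlap. Of the 3 members only osa-miR319b had fewer reads at 24 than at 12 HAI.

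**Figure D2:**
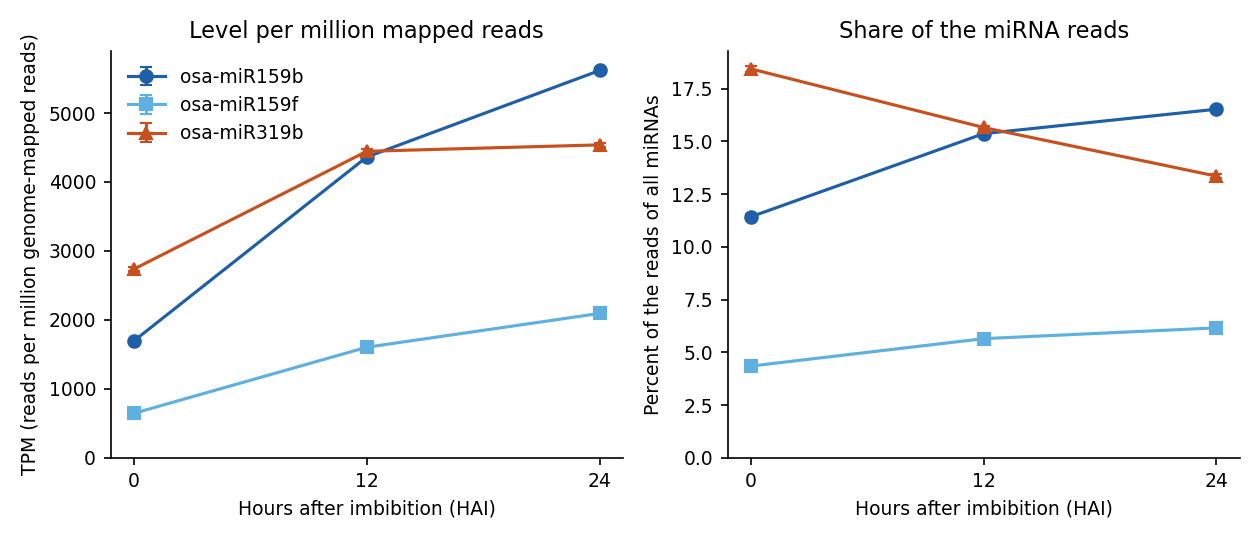
Level of each member as TPM (left) and as percent of the reads of all 289 miRNAs (right) against hours after imbibition; points are single libraries and bars are 95% Wilson limits, mostly smaller than the symbols. osa-miR319b is above osa-miR159b at 0 HAI (2737 and 1696 TPM) and below it at 24 HAI (4538 and 5617 TPM).

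osa-miR159b and osa-miR319b changed places, and osa-miR159f stayed below both. In the dry seed osa-miR319b was the most abundant of the 289 miRNAs, osa-miR159b ranked 4th and osa-miR159f 7th. At 12 HAI osa-miR319b still ranked 1st, with osa-miR159b 2nd and osa-miR159f 6th. At 24 HAI osa-miR159b was 2nd, osa-miR319b 3rd and osa-miR159f 6th. The median miRNA stood at 0.833, 1.66 and 1.90 TPM in the 3 libraries.

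Summed by family over the 42 known families, miR159 ranked 3rd, 2nd and 1st at 0, 12 and 24 HAI. In contrast, miR319 ranked 2nd, 3rd and 4th. The families next to them were miR156, which targets SPL transcription factors, and miR168, which targets AGO1, the Argonaute protein that carries most miRNAs. miR156 had 4009, 6490 and 7094 TPM and miR168 had 1318, 3605 and 5892 TPM.

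The shares of the miRNA reads moved in opposite directions. osa-miR159b held 11.4% (11.3–11.5) of them at 0 HAI, 15.4% (15.3–15.5) at 12 HAI and 16.5% (16.4–16.6) at 24 HAI. osa-miR159f held 4.35% (4.27–4.42), 5.65% (5.59–5.70) and 6.16% (6.10–6.22). Thus both miR159 shares were larger at each later time. osa-miR319b held 18.4% (18.3–18.6), 15.7% (15.6–15.7) and 13.3% (13.3–13.4), a smaller share at each later time. The 3 together were nearly steady, with 34.2%, 36.7% and 36.0% of the miRNA reads.

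The time points were then compared as ratios of TPM, with the 2-fold rule of the study's methods as the call (TPM divided by its maximum, with a lowest value under 0.5). Divided by the 24 HAI level, the maximum of each member, osa-miR159b stood at 0.302 and 0.777 at 0 and 12 HAI and osa-miR159f at 0.308 and 0.766. osa-miR319b stood at 0.603 and 0.979. Hence 2 of the 3 members, those of miR159, passed the rule over the time course in TPM, as did 178 of the 289 miRNAs (61.6%). No member passed it with summed miRNA reads, TMM factors or DESeq2 size factors as denominator, where 111, 113 and 111 miRNAs did.

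From 0 to 12 HAI, osa-miR159b was 2.57-fold higher (exact conditional 95% limits 2.54–2.60) and osa-miR159f 2.48-fold higher (2.43–2.54). osa-miR319b was 1.62-fold higher (1.61–1.64) in TPM, but lower than at 0 HAI under 3 of 5 other scalings, described below. The 2 miR159 members were past 2-fold in TPM, as were 113 of 288 miRNAs (39.2%) that had a read in either library, while 6 miRNAs (2.08%) were at least 2-fold lower. Under the same 3 scalings both calls ended, with ratios down to 1.35 for osa-miR159b and 1.30 for osa-miR159f, and with summed miRNA reads the 113 and 6 miRNAs became 49 and 21. Among the 141 miRNAs whose reads in the 3 libraries came to 100 or more, 32.6% were past 2-fold higher. The ratio of osa-miR159b ranked 30th of these 141, that of osa-miR159f 33rd and that of osa-miR319b 90th.

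From 0 to 24 HAI, the ratios were 3.31 (3.27–3.35) for osa-miR159b, 3.24 (3.18–3.31) for osa-miR159f and 1.66 (1.64–1.68) for osa-miR319b, the last being under 1 with 3 of 5 other scalings. Again the 2 miR159 members were past 2-fold in TPM, where 146 of 289 miRNAs (50.5%) were, and 7 (2.42%) were at least 2-fold lower. Both calls ended under those 3 scalings, with ratios down to 1.45 and 1.42, and with summed miRNA reads the 146 and 7 miRNAs became 56 and 33. With at least 100 reads the share past 2-fold higher was 46.8%. The ranks among these 141 were 33rd, 34th and 84th. Passing the rule was therefore common in this comparison. By family, miR159 ranked 7th and miR319 14th of the 17 highly conserved families.

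From 12 to 24 HAI, no member was past 2-fold. In TPM, osa-miR159b was 1.29-fold higher (1.28–1.30), osa-miR159f 1.31-fold higher (1.29–1.32) and osa-miR319b 1.02-fold higher (1.01–1.03). With summed miRNA reads, TMM factors and DESeq2 size factors, the ratios were 1.08, 1.13 and 1.17 for osa-miR159b. They were 1.09, 1.14 and 1.19 for osa-miR159f, and osa-miR319b was lower at 24 than at 12 HAI under these 3 scalings. In this step 40 of 289 miRNAs (13.8%) were at least 2-fold higher in TPM and 15 (5.19%) at least 2-fold lower. With 100 or more reads, 8.51% were at least 2-fold higher. With summed miRNA reads as denominator, the 40 and 15 miRNAs became 28 and 22.

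Of the TPM difference between dry and 24 HAI embryos, 68.0% was present at 12 HAI for osa-miR159b and 66.1% for osa-miR159f, against 70.7% for the summed TPM of all miRNAs. As shares of the miRNA reads, these were 77.3% and 71.8%. For osa-miR319b, 94.8% of its TPM increase was present at 12 HAI, but as a share of the miRNA reads it decreased, and 54.7% of that decrease was present at 12 HAI. The sum over all miRNAs was 19150 TPM higher at 24 than at 0 HAI, and the miR159 family made up 5369 TPM (28.0%) of that. Between 12 and 24 HAI the miR159 family made up 31.1% of a difference of 5605 TPM.

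These ratios depend on the denominator, because the miRNAs as a whole took a larger part of the later libraries. The median miRNA was higher by 0.81 on the log2 scale at 12 HAI and by 0.98 at 24 HAI than at 0 HAI in TPM, and by 0.16 at 24 than at 12 HAI. When TPM was replaced by summed miRNA reads, TMM factors or DESeq2 size factors, the median log2 ratio of 24 against 0 HAI became -0.22, -0.03 and -0.02.

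Relative to the median miRNA in TPM, osa-miR159b was 0.55 above it on the log2 scale at 12 against 0 HAI and 0.75 above it at 24 against 0 HAI. osa-miR159f was 0.50 and 0.72 above it. osa-miR319b was at -0.11 and -0.25, below the median miRNA in both. Under summed miRNA reads, TMM and DESeq2 factors the miR159 members stayed higher at 24 than at 0 HAI, by 0.50 to 0.74 on the log2 scale, but under 2-fold. The sign for osa-miR319b turned, to -0.47, -0.27 and -0.26. There was no spike-in, so whether osa-miR319b or either miR159 member was higher or lower per embryo after imbibition cannot be told from these libraries.

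**Figure D3:**
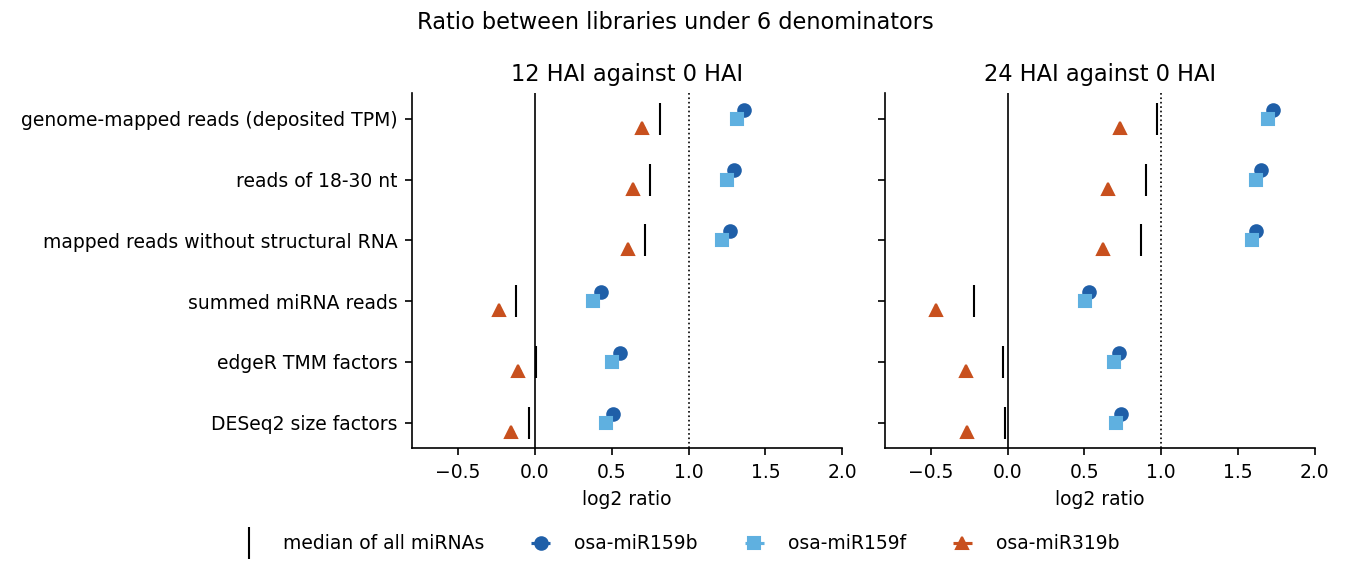
log2 ratio of each member at 12 against 0 HAI (left) and 24 against 0 HAI (right) under deposited TPM and 5 other denominators; the short vertical bar is the median of all miRNAs and the dotted line marks 2-fold. At 24 against 0 HAI in TPM, osa-miR159b is 0.75 above the median and osa-miR319b is at -0.25 from it. A change of denominator shifts all miRNAs alike, so the order of the members cannot differ between denominators.

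The ratio of 2 members within a library needs no denominator. Such ratios were compared between libraries with two-sided Fisher's exact test on the reads, which compares those libraries and not the conditions. Reads of osa-miR159b per read of osa-miR319b came to 0.620 (95% limits 0.611–0.628) at 0 HAI, 0.981 (0.973–0.990) at 12 HAI and 1.24 (1.23–1.25) at 24 HAI. This ratio thus passed 1 between 12 and 24 HAI. Its odds ratio was 1.58 (1.56–1.61) for 12 against 0 HAI, 2.00 (1.96–2.03) for 24 against 0 HAI and 1.26 (1.24–1.28) for 24 against 12 HAI.

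osa-miR159f gave the same picture at a lower level. Its reads per read of osa-miR319b came to 0.236 (0.231–0.241), 0.361 (0.356–0.365) and 0.461 (0.456–0.467) at 0, 12 and 24 HAI. The odds ratios were 1.53 (1.49–1.57), 1.96 (1.91–2.00) and 1.28 (1.26–1.30) for 12 against 0, 24 against 0 and 24 against 12 HAI. With both miR159 members summed, the reads per read of osa-miR319b were 0.855 (0.845–0.866), 1.34 (1.33–1.35) and 1.70 (1.68–1.71), and the limits of the libraries did not overlap.

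By contrast, the miR159 members kept nearly the same proportion to each other. Reads of osa-miR159f per read of osa-miR159b came to 0.381 (0.373–0.389), 0.368 (0.363–0.372) and 0.373 (0.368–0.377) at 0, 12 and 24 HAI. osa-miR159f thus held 27.6%, 26.9% and 27.2% of the miR159 reads. The odds ratio was 0.966 (0.943–0.989) for 12 against 0 HAI, with limits that leave out 1. It was 0.979 (0.956–1.003) for 24 against 0 HAI and 1.01 (0.997–1.03) for 24 against 12 HAI, with limits that include 1. The 2 sequences differ by 1 substitution and 1 end base, and the part of the read assignment in their nearly constant proportion was not tested.

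**Figure D4:**
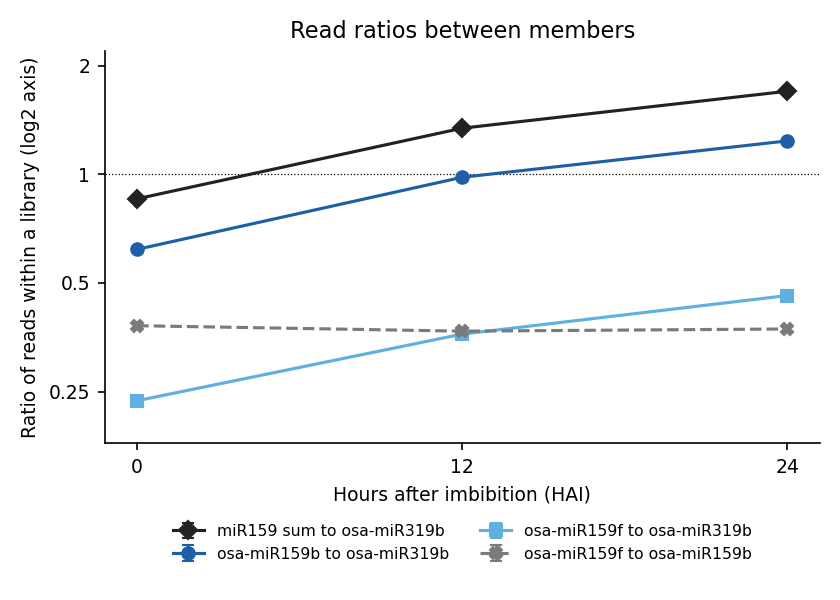
Ratio of the reads of 2 members within a library (log2 axis) against hours after imbibition, with 95% limits that are mostly smaller than the symbols; the dotted line marks equal reads. The ratios to osa-miR319b are higher at each later time (0.620, 0.981 and 1.24 for osa-miR159b), whereas osa-miR159f per osa-miR159b is between 0.368 and 0.381.

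Other families varied more between their members. In 10 families at least 2 mature sequences had at least 100 reads, and the spread of log2 ratios within a family was lowest in miR159 in each of the 3 pairs of libraries. It was 0.05 for 12 against 0 HAI, 0.03 for 24 against 0 HAI and 0.02 for 24 against 12 HAI, where the medians over the 10 families were 0.83, 1.43 and 0.56. miR167, also with 2 members, had 0.28, 0.22 and 0.06. miR396, which targets GRF transcription factors, had 0.40, 2.15 and 1.75. The depth differs, since the lowest member count in any library was 12398 for miR159, 1932 for miR167, 391 for miR396 and 2 for miR160, and some families have 3 or 4 members. The parts of depth and of the read assignment between the miR159 members in this order were not tested.

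The patterns over time were compared with those of the 140 miRNAs that had reads in every library and 100 or more in sum. The measure was the distance over the log2 ratios of 12 and 24 HAI to 0 HAI, which a common scaling does not change. Nearest to osa-miR159b was osa-miR159f (distance 0.059), to which the limit on read assignment applies as well, followed by osa-miR171i (0.128) and osa-miR1876 (0.209). Nearest to osa-miR159f were osa-miR159b, osa-miR171i (0.157) and osa-miR1876 (0.180). osa-miR171i, of a family that targets GRAS transcription factors, had 710, 2084 and 2318 reads, and osa-miR1876 had 5539, 16335 and 14362.

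Nearest to osa-miR319b were the predicted OsmiR-207 (0.020), osa-miR156dj (0.026) and the predicted OsmiR-161 (0.067). Of these osa-miR156dj was abundant, with 43067, 80489 and 65482 reads. OsmiR-207 had 449, 857 and 679 reads and OsmiR-161 had 720, 1300 and 1093. osa-miR319b was the 63rd nearest miRNA to each miR159 member, at 1.20 from osa-miR159b and 1.15 from osa-miR159f. osa-miR159b and osa-miR159f were the 103rd and 100th nearest to osa-miR319b. The families, alike in sequence, precursor shape and abundance, were thus not near neighbours in pattern.

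**Figure D5:**
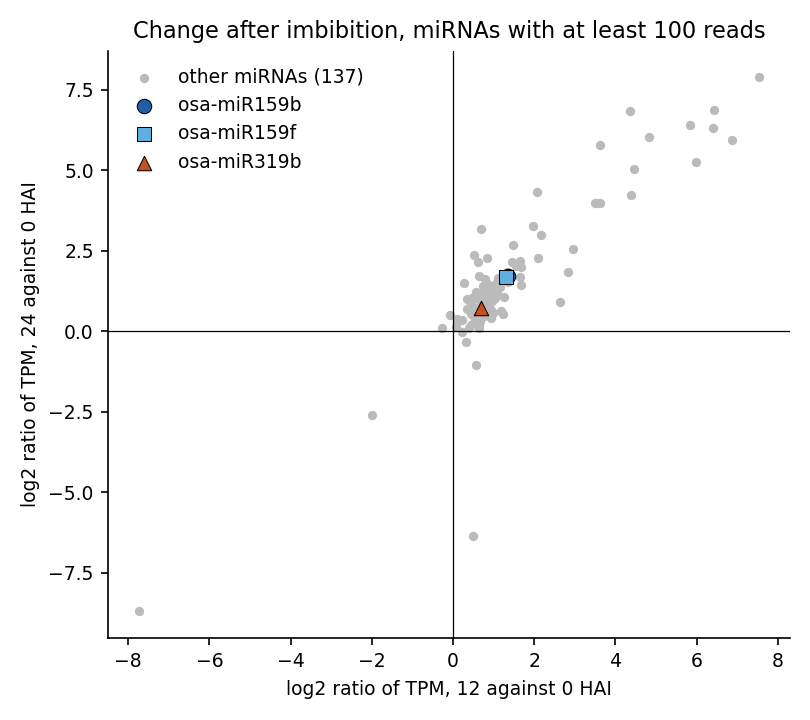
log2 ratio of TPM at 24 against 0 HAI over that at 12 against 0 HAI for the 140 miRNAs with reads in every library and 100 or more in sum; grey points are the 137 miRNAs of other families. The miR159 members lie on each other (distance 0.059), and osa-miR319b lies 1.20 from osa-miR159b, nearer to the origin.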

How the data were processed

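The 3 libraries were grouped by their labels. The authors filtered the reads (FastQC), kept 18–30 nt, mapped them to MSU 7.0 with Bowtie, discarded matches to structural RNAs of Rfam 11 and matched the rest to miRBase 21 with up to 2 mismatches; software versions are not given in the sources used here. The read counts were deposited by the authors without normalization, and the TPM values beside them equal reads per 1000000 genome-mapped reads in all 407 rows. The deposited G+C percent and folding scores (MFE, MFEI) were also made by the authors. As the known miRNAs are listed in 2 identical copies, copy 1 was used.

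The mapped reads were derived from reads and TPM. Ratios have exact conditional 95% limits, shares and TPM have Wilson 95% limits, and within-library ratios were compared by Fisher's exact test with conditional odds ratios. A quasi-likelihood fit in edgeR could not be made without replicates. The members and lists were chosen with earlier results of these data known, so no p-value adjusted over the members is given. The PCR-amplified reads carry no described molecular identifiers, so limits cover counting error only. Named miRNAs are the members, the 3 nearest to each in pattern among those with at least 100 reads, and families that rank next to the members or have several mature sequences. Alternatives were 5 other denominators, 1 read added, filters on the miRNAs counted, known miRNAs alone as denominator, Wald limits, a filter of 1000 reads and RNAfold energies. Totals of 18–30 nt reads and of structural RNA are the study's. Simulated data were used to check the limits and the 2-fold call. Folding was done with RNAfold 2.7.2. Scaling factors came from DESeq2 1.42.0 and edgeR 4.0.16 in R 4.3.3, and everything else was computed with scipy 1.17.1, pandas 2.3.3, numpy 2.4.6 and matplotlib 3.10.9 in Python 3.11.15. Target sites and promoters were not analysed here.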

Additional observations from a re-analysis of the deposited data

How the results depend on the processing

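No paired analysis was possible because each time point has 1 library, and for the same reason no library could be left out. With summed miRNA reads, TMM factors and DESeq2 size factors as denominators, the log2 ratios of miR159 stayed positive but fell under 2-fold. For 12 against 0 HAI they were 0.43, 0.55 and 0.51 for osa-miR159b, 0.38, 0.50 and 0.46 for osa-miR159f, and 0.41, 0.54 and 0.50 for the miR159 sum. For 24 against 0 HAI they were 0.53, 0.73 and 0.74, then 0.50, 0.70 and 0.71, and 0.52, 0.72 and 0.73. The sign for osa-miR319b turned, to -0.24, -0.11 and -0.15 for 12 against 0 HAI, -0.47, -0.27 and -0.26 for 24 against 0 HAI, and -0.23, -0.16 and -0.11 for 24 against 12 HAI. These denominators set the summed or typical miRNA about equal between libraries by construction.

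Counts of miRNAs past 2-fold moved under the same 3 denominators, then with at least 100 reads, then with known miRNAs alone. The last 2 settings are filters that leave 141 and 59 miRNAs, so their counts compare with the main ones only as shares. Higher at 12 than 0 HAI were 49, 51, 50, 46 and 27 in place of 113, and lower were 21, 18, 18, 2 and 1 in place of 6. Higher at 24 than 0 HAI were 56, 67, 68, 66 and 33 in place of 146, and lower were 33, 24, 23, 4 and 1 in place of 7. Higher at 24 than 12 HAI were 28, 33, 35, 12 and 9 in place of 40, and lower were 22, 21, 19, 3 and 1 in place of 15. Under the 2 filters, 32.6% and 45.8% were higher at 12 than 0 HAI, against 39.2% of all. For 24 against 0 HAI these were 46.8% and 55.9%, against 50.5%, and for 24 against 12 HAI 8.51% and 15.3%, against 13.8%. The shares lower were 1.42% and 1.69% (against 2.08%), 2.84% and 1.69% (2.42%), and 2.13% and 1.69% (5.19%) in the same order. With known miRNAs alone as denominator, the shares at 0, 12 and 24 HAI were 12.1%, 16.2% and 17.3% for osa-miR159b, 4.61%, 5.96% and 6.47% for osa-miR159f, and 19.5%, 16.5% and 14.0% for osa-miR319b.

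The count past the rule over the time course, 178, became 111, 113, 111, 73 and 35 in the same order, alternatives that were added after seeing the data. The 73 and 35 are 51.8% of 141 and 59.3% of 59 miRNAs, against 61.6% of all 289. The other 86 values of the comparisons under an alternative kept their direction and call, the odds ratios with Wald limits among them. The nearest miRNAs named above each had at least 1000 reads in sum, so the filter of 1000 reads could not change them. RNAfold gave -73.2 kcal/mol for osa-MIR159b, where -70.7 was listed. What the libraries cannot show is the spread between plates, since the RNA was mixed before sequencing.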
